A study of Mus musculus with 6 samples.

Results

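The T cell receptor complex and the molecules that start its signal were examined in mouse regulatory T cells (Treg) with and without a deletion of p300, a histone acetyltransferase and transcriptional co-activator. The group was defined by gene symbol: Cd3e, Cd3d, Cd3g, Cd247, Cd4, Cd2, Lck, Zap70 and Lat. Of these 9 genes, 8 are named as the only gene of at least 1 probe set of the expression array, with 13 probe sets among the 22690 of the table, and Lck is not analysed here. The brightest probe set of each of the 8 genes lay above the limit set for dim genes, so all 8 were among the 8676 genes tested.

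RNA came from CD4+CD25+ T cells, isolated with magnetic separation from C57Bl/6 mice, and each of 6 samples was measured on 1 array. The p300-deleted group (3 arrays) had the genotype fl-p300/Foxp3cre, in which Cre recombinase expressed from Foxp3 removes a floxed p300 gene. The control group (3 arrays) had the genotype Foxp3cre with no floxed p300 according to the labels, although sample titles call it WT. Whether the controls carried the Foxp3cre allele is therefore not settled by the labels, and if they did not, the deletion and the allele cannot be told apart in any difference given here. The labels give no age, treatment, number of animals behind a sample or structure of the Foxp3cre allele. The samples are called independent without saying how, so the p-values below rest on a spread that may be technical.

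The receptor recognises antigen through its variable chains, which have almost no cytoplasmic part and rely on the CD3 chains and on CD247 (the zeta chain) to signal. The co-receptor CD4 binds MHC class II and carries the kinase Lck, which phosphorylates the immunoreceptor tyrosine-based activation motifs of the CD3 and zeta chains. Zap70 docks on the phosphorylated motifs and phosphorylates the adaptor Lat, on which downstream enzymes assemble. CD2 is an adhesion and co-stimulatory receptor of T cells. Treg need receptor signals for their development and suppressive function.

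Of 5 Treg markers tested, 1 fell and 0 rose by limma at an adjusted p under 0.05 (0.726% and 0.991% of all tested genes). Foxp3, the defining transcription factor of Treg, read 9.63, 9.35 and 9.39 on the log2 scale in controls. It read 2.57, 3.04 and 3.15 in p300-deleted arrays, below the limit for dim genes (3.91). Foxp3 therefore does not mark the p300-deleted arrays as Treg, and the cause was not tested. Il2ra, which encodes the CD25 used for separation, read 8.99, 8.62 and 9.07 in controls and 9.16, 9.09 and 9.17 in p300-deleted arrays. Mean values of Ctla4 and Tnfrsf18 were 10.62 and 11.18 in controls and 10.93 and 11.02 in p300-deleted arrays. Ikzf2 was dimmer, at means of 4.66 in controls and 5.26 in p300-deleted arrays. RNA integrity was read from Gapdh as the value of its 3' control probe set minus that of its 5' one. It was 0.23, 0.59 and 0.21 in controls, with control 2 apart, and 0.09, 0.14 and 0.06 in p300-deleted arrays, with no overlap between the groups. The same measure from actin overlapped between the groups, at 0.40, 0.46 and 0.30 in controls and 0.36, 0.43 and 0.29 in the p300-deleted group. The 18S ribosomal RNA probe sets ranged from 5.68 to 8.69 in controls and from 7.74 to 9.47 in the other group. In all, 149 of 8676 genes (1.72%) were called changed by limma at an adjusted p under 0.05, of which 86 (0.991% of all tested) were higher and 63 (0.726%) lower in p300-deleted cells. Omitting one p300-deleted array left 22 to 35 calls, omitting control 1 left 9 (0.104%), control 2 118 and control 3 230 (2.65%), so these shares are unstable as a background.

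No gene of the receptor group was called changed: 0 of 8 passed by limma, against 1.72% of all tested genes. At an unadjusted p under 0.05, 3 of 8 were higher (8.21% of all tested genes) and 0 lower. These 3 were Cd4, Cd2 and Cd3g, and the 3 p300-deleted arrays lay above all 3 controls for the same 3 genes (37.5% of the 8, against 10.5% of all tested genes). Differences are given as p300-deleted minus control in log2 units. Their median over the 8 genes was 0.13, against -0.03 over all tested genes, with a range from -0.11 for Zap70 to 0.68 for Cd4. The genes were chosen with earlier results of these data known, so the counts are a description of the group. In bulk RNA such as this, a different share of cells with a transcript and a different amount of it per cell cannot be told apart.

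**Figure D1:**
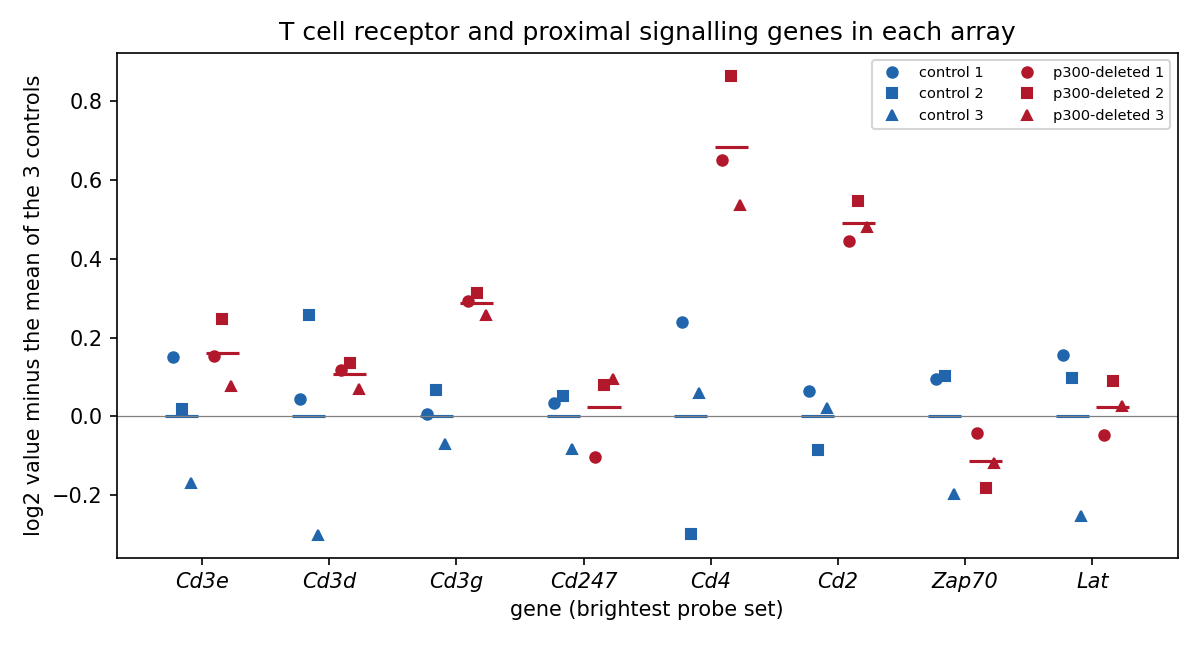
Log2 value of each array minus the mean of the 3 controls (vertical axis) for the brightest probe set of 8 genes (horizontal axis); blue marks are controls, red marks p300-deleted arrays, symbols give the replicate number and bars the group means. Cd3g, Cd4 and Cd2 have no overlap between groups, at differences of 0.29, 0.68 and 0.49, and the other 5 genes overlap.

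Cd3e, Cd3d and Cd3g encode the CD3 epsilon, delta and gamma chains. They are neighbours on chromosome 9 with no other annotated gene between them, and Cd3g and Cd3d are transcribed away from each other. The 100 bases before the outermost annotated start of each are shown because the 3 genes share a locus and encode the chains whose values follow. The sequences are from RefSeq, build GRCm38.p6, written 5' to 3' on the strand of the gene. Capitals mark matches on either strand to CANNTG (the E-box), GGAA (the ETS core) and TGTGGT (a RUNX motif).
Cd3g (chr9:44980432-44980531, - strand): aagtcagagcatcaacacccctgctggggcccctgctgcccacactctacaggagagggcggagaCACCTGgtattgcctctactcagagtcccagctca
Cd3d (chr9:44981669-44981768, + strand): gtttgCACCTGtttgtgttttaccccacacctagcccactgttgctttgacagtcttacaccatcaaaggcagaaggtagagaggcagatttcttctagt
Cd3e (chr9:45009664-45009763, - strand): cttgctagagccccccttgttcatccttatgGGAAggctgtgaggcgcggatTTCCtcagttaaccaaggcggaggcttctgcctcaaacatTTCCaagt

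The stretches of Cd3g and Cd3d each held 1 E-box with the same letters, CACCTG, and 0 matches to GGAA. The stretch of Cd3e held 0 E-boxes and 3 matches to GGAA. None of the 3 stretches held TGTGGT, and no match overlapped another. The longer RefSeq windows of 300 bases around each start held both motifs for all 3 genes, with 4 E-boxes and 2 matches to GGAA for Cd3g, 1 and 6 for Cd3d and 2 and 5 for Cd3e, so the contrast between the printed stretches depends on their length. Of 32851 RefSeq promoter windows of 300 bases, 72.3% held an E-box, 96.0% GGAA and 16.8% TGTGGT, so the first and second of these motifs are common in windows of that length. A match is a description of the letters and not evidence of a bound factor, and the arrays do not measure binding.

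Of the CD3 chains, only Cd3g separated the groups. It read 11.96, 11.98 and 11.92 in p300-deleted arrays against 11.67, 11.73 and 11.60 in controls. The p300-deleted arrays lay close together and all above the highest control. The difference was 0.29 (SE 0.10, 95% interval 0.07 to 0.51), a fold of 1.22, and it did not pass over all genes (limma adjusted p = 0.178).

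Cd3e read 11.53, 11.63 and 11.46 in p300-deleted arrays against 11.53, 11.40 and 11.21 in controls. Control 1 lay level with p300-deleted 1 and control 3 was lowest. The difference was 0.16 (SE 0.12, 95% interval -0.11 to 0.43, limma adjusted p = 0.529), and it was 0.074 without control 3. Cd3d read 12.39, 12.41 and 12.34 in p300-deleted arrays against 12.32, 12.53 and 11.97 in controls. Here the controls were on both sides of the p300-deleted arrays, with control 2 highest and control 3 lowest of all 6. The difference was 0.11 (SE 0.15, 95% interval -0.22 to 0.44, limma adjusted p = 0.756), and it was -0.04 without control 3 and 0.24 without control 2. The intervals of the 3 chains overlap, and whether Cd3g differed more than its neighbours was not tested.

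Cd247 encodes the zeta chain, which carries more activation motifs than any CD3 chain, and its transcripts are known to be spliced in more than one way. Its brightest probe set, 1426396_at, read 9.98, 10.17 and 10.18 in p300-deleted arrays against 10.12, 10.14 and 10.00 in controls. The groups overlap fully, at a difference of 0.02 (SE 0.11, 95% interval -0.22 to 0.27, limma adjusted p = 0.936), and the mean of all 4 probe sets gave 0.31 (adjusted p = 0.147). The probe set 1420716_at gave the same picture, with a difference of 0.02 (SE 0.17), and 1426079_at was dim, with all arrays between 2.39 and 2.72.

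A further Cd247 probe set did not follow these. The probe set 1452539_a_at read 9.0, 9.26 and 8.97 in p300-deleted arrays against 8.02, 7.60 and 8.50 in controls. Its p300-deleted arrays all lay above the controls, and the controls spread more widely, with an SD of 0.45 against 0.16. With every probe set fitted singly, the difference was 1.04 (SE 0.21, 95% interval 0.56 to 1.52), a fold of 2.05, which did not pass (limma adjusted p = 0.0777 over 22690 probe sets, of which 0.450% were called). The suffix _a_at marks a probe set that the array's design matched to several transcripts of 1 gene. The files do not say which Cd247 transcripts it reads.

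The disagreement within Cd247 was measured inside each array. The value of 1452539_a_at minus that of 1426396_at was -0.98, -0.91 and -1.22 in p300-deleted arrays against -2.11, -2.54 and -1.51 in controls, with no overlap. Among 3238 genes with more than 1 probe set above the dim limit, the median gap between the highest and lowest difference of a gene's probe sets was 0.20. The gap for Cd247 was 1.02, at percentile 97.9 of those genes. Cd247 has 4 probe sets, of which 1426079_at lies below the limit. The genes were not matched for number or brightness of probe sets, and such a gap tends to widen with more probe sets. The lowest value of 1452539_a_at was in control 2, the array with the widest Gapdh 3' minus 5' difference (0.59; actin 0.46), and the part of RNA integrity in this pattern was not tested.

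**Figure D2:**
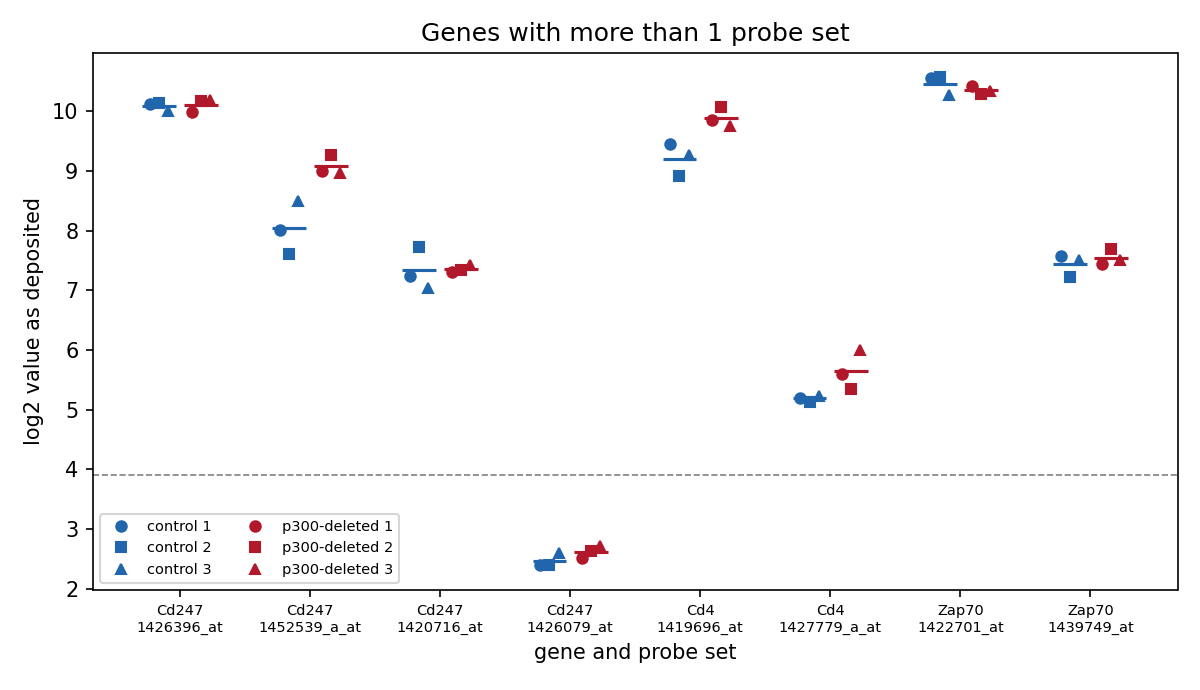
Deposited log2 value (vertical axis) of each probe set of Cd247, Cd4 and Zap70 (horizontal axis) in each array; blue marks are controls, red marks p300-deleted arrays, symbols give the replicate number, bars the group means, and the dashed line the limit for dim genes at 3.91. The groups are apart for 1452539_a_at of Cd247 and for both probe sets of Cd4, and overlap for the other 5 probe sets.

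Cd4, the co-receptor by which the cells were separated, had the largest difference of the 8 genes. Its brightest probe set, 1419696_at, read 9.86, 10.07 and 9.74 in p300-deleted arrays against 9.45, 8.91 and 9.27 in controls. The lowest p300-deleted array lay above the highest control, and control 2 was lowest. The difference was 0.68 (SE 0.16, 95% interval 0.33 to 1.04), a fold of 1.61, and missed the threshold (limma adjusted p = 0.0746). Without control 2 the difference was 0.53 (limma adjusted p = 0.105).

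The other Cd4 probe set, 1427779_a_at, is dimmer and read 5.59, 5.35 and 5.99 in p300-deleted arrays against 5.20, 5.13 and 5.23 in controls. It again placed all p300-deleted arrays above all controls, here with a narrow control group and a wide p300-deleted group. Its difference was 0.46 (SE 0.16, limma adjusted p = 0.246 with every probe set fitted singly). Of all probe sets, 9.17% had arrays that did not overlap in this direction.

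Cd2 had the smallest p of the 8 genes. It read 11.36, 11.46 and 11.39 in p300-deleted arrays against 10.98, 10.83 and 10.93 in controls. Both groups were tight, with SDs of 0.05 and 0.08, and the gap between them was wider than the range of either. The difference was 0.49 (SE 0.10, 95% interval 0.26 to 0.72), a fold of 1.41, with an adjusted p just above the threshold (limma adjusted p = 0.0511). Cd2 ranked 159th and Cd4 236th by p among the 8676 genes, of which 149 were called.

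Cd4 and Cd2 also stood higher against the CD3 chains of the same array. Cd4 minus the mean of Cd3e, Cd3d and Cd3g was -2.10, -1.93 and -2.16 in p300-deleted arrays against -2.39, -2.98 and -2.33 in controls. The groups do not overlap, and their means differed by 0.50. Cd2 minus the same mean was -0.60, -0.55 and -0.51 in p300-deleted arrays against -0.86, -1.06 and -0.66 in controls, also with no overlap, and the means differed by 0.31. These within-array values, which an additive shift of a whole array does not move, describe unequal readings of Cd4 and Cd2 against the CD3 chains and were not tested.

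Zap70, the kinase that docks on the phosphorylated receptor, was the only gene of the 8 with a negative difference. Its brightest probe set, 1422701_at, read 10.42, 10.28 and 10.34 in p300-deleted arrays against 10.56, 10.57 and 10.27 in controls. Controls 1 and 2 were highest and control 3 lowest, at a difference of -0.11 (SE 0.12, 95% interval -0.38 to 0.15, limma adjusted p = 0.661). The second probe set, 1439749_at, had a difference of 0.11 (SE 0.13), so the 2 probe sets have opposite signs, each within its error. The brightest probe set was at -0.21 without control 3, at -0.068 and -0.063 without controls 1 and 2, and at 0.03 with the 18S value as a covariate.

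Lat, the adaptor that Zap70 phosphorylates, read 11.30, 11.44 and 11.38 in p300-deleted arrays against 11.51, 11.45 and 11.10 in controls. The controls again lay on both sides of the p300-deleted arrays. The difference was 0.02 (SE 0.13, 95% interval -0.27 to 0.32, limma adjusted p = 0.950), and its sign turned under 4 of 16 alternatives, among them leaving out control 3 (-0.10).

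Control 3 was the lowest of all 6 arrays for 5 of the 8 genes, Cd3e, Cd3d, Cd3g, Zap70 and Lat, and control 2 was lowest for Cd4 and Cd2. Control 2 had the widest Gapdh 3' minus 5' difference, 0.59 (actin 0.46), and the part of RNA integrity in Cd4 and Cd2 was not tested. Control 3 was the lowest control for 6 of the 8 genes and for 46.0% of all tested genes. The SD was larger in controls than in p300-deleted arrays for 7 of the 8 genes and for 70.0% of all tested genes. Control 3 also had the highest mean over 11 tested cell cycle genes, 8.37 against 7.23 to 7.55 in the other controls and 6.46 to 7.03 in p300-deleted arrays. The part of the cell cycle in these readings was not tested. Control 3 was also the highest control for 18S ribosomal RNA, at 8.69 against 5.68 in control 1 and 6.03 in control 2. The p300-deleted arrays read 7.74 to 9.47. Once the fit included 18S, Cd3e was at 0.24, Cd3d at 0.28, Cd3g at 0.32, Zap70 at 0.03 and Lat at 0.16. Each of these 5 differences was higher than in the main fit, while those of Cd4 (0.61) and Cd2 (0.46) were lower.

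The genes with the pattern most like that of Cd4 were found by the root mean square difference of gene-centred log2 values over the 6 arrays. The closest was Dpp4, which encodes the T cell surface peptidase CD26, at 0.06, followed by Trim59, Ift80, Pitpnb and Gbp6 at 0.10 each, where the median over all other tested genes was 0.43. For Cd2 the closest were Mpp1, Cpne3, Serp1, St7 and Usp9x, at 0.04 to 0.06 against a median of 0.30. Of these, Mpp1, Serp1, St7, Usp9x and Ift80 were called by limma, with adjusted p of 0.0470, 0.0486, 0.0479, 0.0405 and 0.0486 (1.72% of all tested genes were called). Dpp4, at 0.63, was not called (limma adjusted p = 0.0545). The genes were picked for values like those of Cd4 or Cd2, so similar differences and p-values follow from the choice. Within the receptor group, Cd3g was the closest to Cd2, at 0.13, ahead of Cd4 at 0.17, and Cd2 was the closest to Cd4.

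The rest of the pathway was read from 5 lists by role, with 81 symbols in all, of which 56 genes were tested. Over the 5 lists 0 genes passed by limma in either direction (at an unadjusted p under 0.05 there were 4 higher and 7 lower genes, against 8.21% and 9.90% of all tested genes). Their median difference was -0.02, next to -0.03 over all genes. Arrays did not overlap for 8 genes (14.3%) in the higher and 9 genes (16.1%) in the lower direction, against 10.5% and 13.2% of all tested genes.

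**Figure D3:**
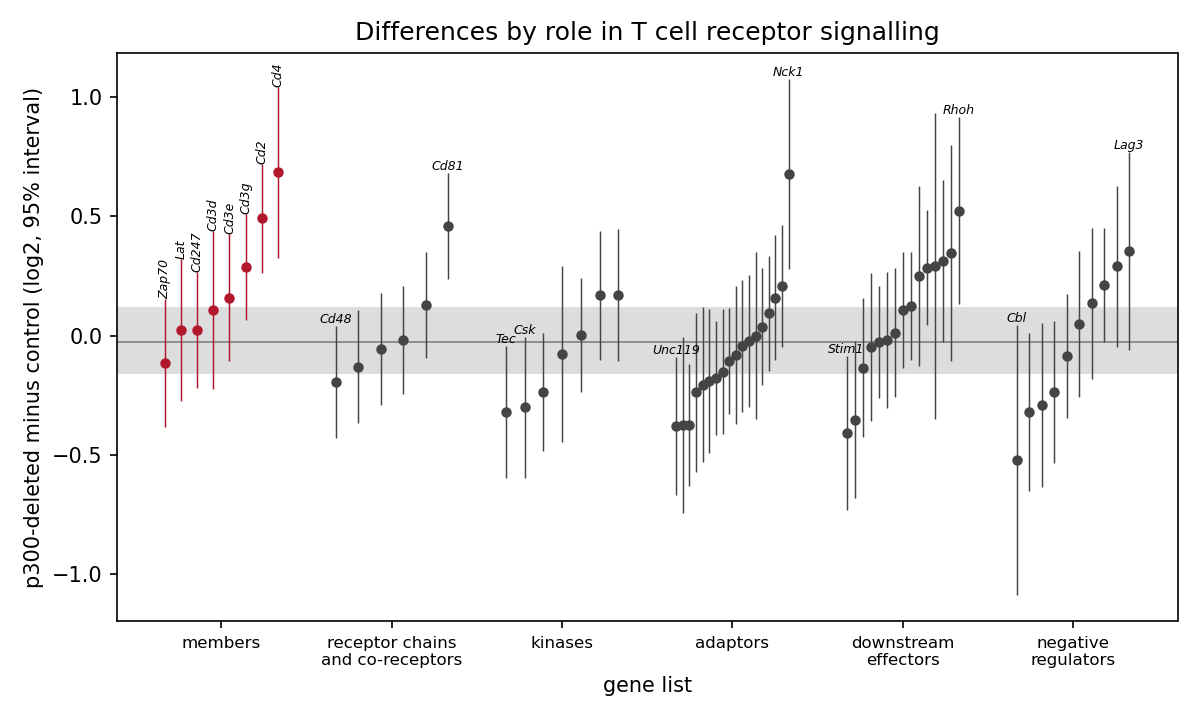
Log2 difference between p300-deleted and control arrays with its 95% interval (vertical axis) for each tested gene, by list (horizontal axis); red points are the 8 receptor and proximal signalling genes, the grey band is the middle 50% of all tested genes (-0.16 to 0.12) and the grey line their median. Cd4 at 0.68 and Nck1 at 0.68 are the highest points, and Cbl at -0.52 is the lowest.

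The list of other receptor chains and co-receptors had 12 symbols, of which 6 genes were tested: Cd5, Cd6, Cd28, Ptprc, Cd48 and Cd81. None of these encodes a variable chain of the receptor, so those chains were not read here. None of the 6 passed, with a median of -0.04. Cd81, a tetraspanin that partners with co-receptors, was furthest from 0, at 0.46 (SE 0.10, limma adjusted p = 0.0591), with p300-deleted arrays at 9.67, 9.56 and 9.71 and controls at 9.17, 9.22 and 9.17. Cd48, which binds CD2 in the mouse, was at -0.19 (SE 0.10, adjusted p = 0.368). The co-stimulatory receptor Cd28 and the phosphatase CD45, encoded by Ptprc, were at -0.06 and -0.02.

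Of 7 kinases, none passed, with a median of -0.08. The Tec family kinase Tec was at -0.32 (SE 0.12, limma adjusted p = 0.218) and Csk, which inhibits Lck, at -0.30 (SE 0.13, adjusted p = 0.270). Fyn, the other Src family kinase of T cells, was at 0.17 (SE 0.12).

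Of 18 adaptors, none passed, with a median of -0.09. The 2 Nck adaptors, which link the receptor to actin, lay apart in opposite directions. Nck1 read 7.21, 7.56 and 7.05 in p300-deleted arrays against 6.41, 6.48 and 6.90 in controls, a difference of 0.68 (SE 0.18, limma adjusted p = 0.0961). Nck2 read 7.68, 7.80 and 7.96 against 8.25, 8.22 and 8.10, a difference of -0.37 (SE 0.11, adjusted p = 0.137). In each pair all p300-deleted arrays lay on one side of all controls. Unc119, an adaptor that activates Lck, was at -0.38 (SE 0.13, adjusted p = 0.178), and Lcp2, the SLP-76 adaptor that joins Lat, at 0.04.

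Of 15 downstream effectors, none passed, with a median of 0.11. Rhoh, a GTPase needed to bring Zap70 to the receptor, was at 0.52 (SE 0.17, limma adjusted p = 0.168), and Stim1, the calcium sensor of the endoplasmic reticulum, at -0.41 (SE 0.14, adjusted p = 0.184). Of 10 negative regulators, none passed, with a median of -0.02. The ubiquitin ligase Cbl was at -0.52 (SE 0.25, adjusted p = 0.312), with controls spread from 7.48 to 8.58, and the inhibitory MHC class II receptor Lag3 at 0.36 (SE 0.18, adjusted p = 0.351).

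Markers of other cells were read beside these values, where rose and fell mean called by limma at an adjusted p under 0.05. Of all tested genes 0.991% rose and 0.726% fell, and 8.21% were higher at an unadjusted p under 0.05. Both CD8 markers had positive differences, Cd8b1 at 0.35 (limma adjusted p = 0.161) and Cd8a at 0.10 (adjusted p = 0.712), and Cd8a lay at the dim limit, with all arrays between 3.77 and 4.11. Of 8 plasma cell markers 5 rose, and the list mean was 8.55 to 9.07 in p300-deleted arrays against 7.84 to 7.92 in controls. Of 8 mast cell and basophil markers 6 rose, with list means of 5.83 to 6.50 and 4.83 to 4.97. Of 9 NK cell markers 1 rose (7.19 to 7.68 against 6.92 to 7.26). Of 18 myeloid markers 0 passed by limma, with 10 higher at an unadjusted p under 0.05, and their means were 6.40 to 7.72 against 5.58 to 6.26. Of 7 B cell markers 1 fell, with means of 6.67 to 7.36 against 7.31 to 7.54. Of 11 cell cycle genes, which mark a state and not a cell type, 2 fell and 9 were lower at an unadjusted p under 0.05. Their means were 6.46 to 7.03 against 7.23 to 8.37. The part of any of these lists in the differences of Cd4, Cd2 and Cd3g was not tested.

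The calls of Cd2 and Cd4 depended on the settings of the fit, while their direction did not. Leaving out an array could not turn the direction, because the groups do not overlap. Several filters and variance models leave the difference itself unchanged. Over 16 alternatives the difference of Cd2 ran from 0.45 to 0.52 and its adjusted p from 0.0144 to 0.257, with 3 alternatives under 0.05. That of Cd4 ran from 0.53 to 0.80, with adjusted p from 0.0306 to 0.288 and 2 alternatives under 0.05. Cd3g ran from 0.25 to 0.32, with adjusted p from 0.0493 to 0.502 and 1 alternative under 0.05. At an adjusted p under 0.10, 2 of the 8 genes were called, Cd2 and Cd4, where 2.27% of all tested genes were called as higher. With the 18S value as a covariate, Cd2 was at 0.46 (limma adjusted p = 0.183) and Cd4 at 0.61 (adjusted p = 0.274). Cd3g was then at 0.32 (adjusted p = 0.335).

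**Figure D4:**
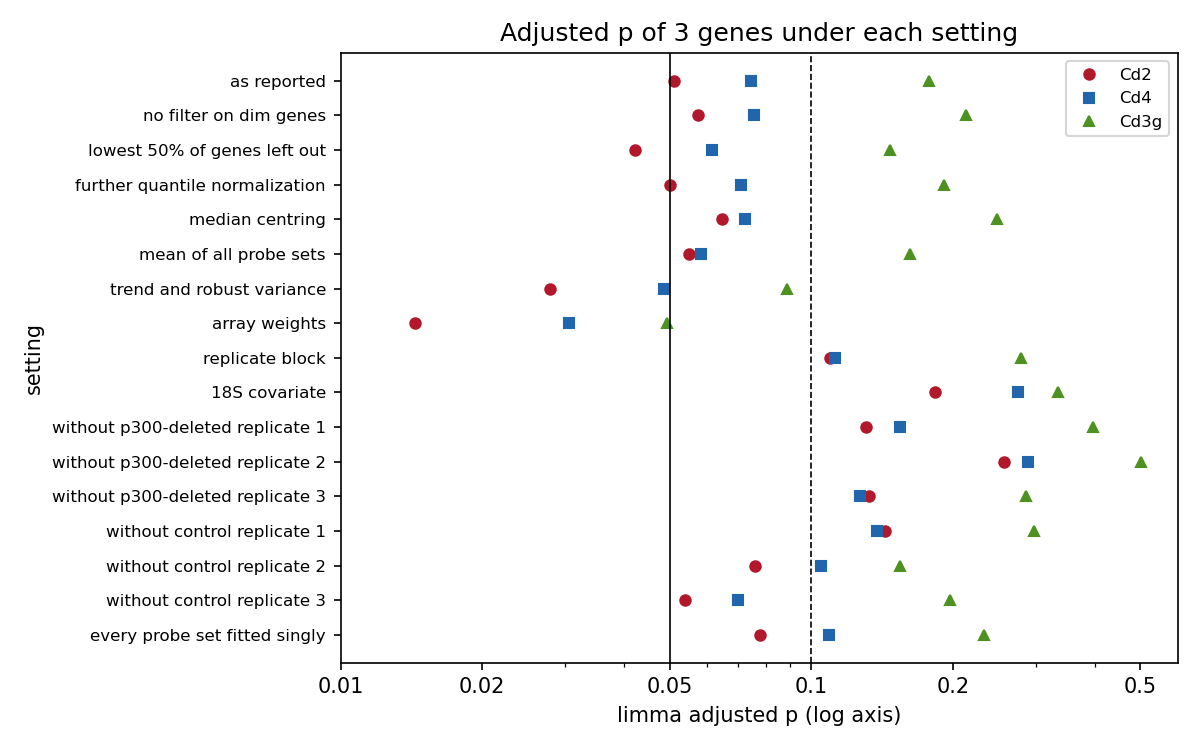
Adjusted p of limma (horizontal log axis) for Cd2, Cd4 and Cd3g under each setting of the fit (vertical axis); the solid line is 0.05 and the dashed line 0.10. Points left of 0.05 occur for Cd2 with the dimmest 50% of genes left out, for Cd2 and Cd4 with a trended and robust variance, and for all 3 genes with array weights.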

How the data were processed

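Each of the 6 arrays has 1 column of log2 values, which per the submitters' processing notes the authors made with RMA (no version given). RMA corrects background, gives the arrays a common distribution and summarises probes. A change in total RNA per cell is therefore not visible, and dim probe sets show compressed differences. Precision is limited by the 3 arrays a group has.

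Of the probe sets, 20393 have 1 symbol in the platform annotation, 691 several and 1606 none. Each of 12394 genes was read from its brightest probe set (highest mean over all arrays), and the dimmest 30% (means up to 3.91) were left out. The test was limma 3.58.1 (lmFit, eBayes) in R 4.3.3, two-sided and with no covariate, with Benjamini-Hochberg adjustment over the 8676 genes left. The fit was tested on simulated data. Genes were called at an adjusted p under 0.05. From each pathway list the text names genes that were called or the 2 furthest from 0, and any further gene was chosen with its values in view. The members and lists were chosen with earlier results of these data known. Alternatives were other filters, scalings, probe set rules, variance models and covariates, and leaving out each array.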

Additional observations from a re-analysis of the deposited data

How the results depend on the processing

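The differences of Cd3e, Cd3g, Cd4 and Cd2 were positive under all 16 alternatives run for each. For Cd3g, Cd4 and Cd2, whose arrays do not overlap, leaving out an array could not turn the sign. Several filters and variance models leave the difference itself unchanged. The call was gained for Cd2 with the dimmest 50% of genes left out (0.49, limma adjusted p = 0.0422), for Cd2 (0.49, adjusted p = 0.0279) and Cd4 (0.68, adjusted p = 0.0488) with a trended and robust variance, and with array weights for Cd2 (0.46), Cd4 (0.56) and Cd3g (0.29). The receptor genes called as higher numbered 1, 2 and 3 of 8 under these settings, where 1.29%, 1.23% and 5.36% of all tested genes were called as higher, and 2 at an adjusted p under 0.10 (2.27%), and the other pathway genes called as higher 1, 1, 3 and 2, with 6 lower by array weights. All genes called were 149 as reported, 129 with the dimmest 50% left out, 186 with a trended and robust variance, 1019 with array weights (11.7%), 399 at an adjusted p under 0.10, 95 with the mean of all probe sets and 15 with the 18S covariate. Small differences turned sign for Zap70 with the 18S covariate (0.032) and for Lat with median centring (-1.7e-07) and array weights (-0.064). The cause was not tested.

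Leaving out each array gave 0 receptor genes called each time, 0 to 1 other pathway genes called as higher (1 without control 3) and 9 to 230 genes in all (9 without control 1, 230 without control 3). The difference of Cd3e then ran from 0.074 to 0.24, of Zap70 from -0.21 to -0.063, of Cd3d from -0.043 to 0.24, of Cd247 from -0.019 to 0.087 and of Lat from -0.10 to 0.10. Same-numbered arrays deviated from their group means with correlations of -0.07, 0.12 and -0.12 over genes. With 3 arrays a group, such low values do not settle whether the numbers pair the samples. The replicate block gave 98 calls in all and left Cd2 at 0.49 and Cd4 at 0.68 (adjusted p = 0.110 and 0.112).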
